A study of Mus musculus with 12 samples.

Results

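The 43 genes described here encode plasma proteins that the liver secretes for blood clotting, for its control and dissolution, and for the complement system, together with the fetuins Ahsg and Fetub. They were taken by gene symbol from a table of 50499 genes counted in bulk mouse liver, 43 of which are on the list. The rule names symbols and no measured value, but the list was drawn up with earlier results of these data known. By role, 14 belong to the clotting cascade, 10 to fibrinolysis and anticoagulation, 17 to complement and 2 are fetuins. The livers came from male C57BL/6 mice that entered the diets at 6 weeks of age and received an AAV8 vector through the tail vein after 12 weeks on them. The vector carried the TBG promoter, which is active mainly in hepatocytes, and either a silencing insert against Aatf (siAATF, whose genotype field reads KD) or no insert (null). The 4 groups of 3 libraries were a Western diet with sugar water and siAATF (Western siAATF), the same diet with the null vector (Western null), chow with normal water and siAATF (chow siAATF), and chow with normal water and the null vector (chow null). All 4 groups, the chow null group included, therefore carried an AAV8 vector. The libraries are numbered 1 to 3 within a group, and no label ties a number to a mouse of its own. The spread between libraries, which the p-values rest on, may thus be partly technical.

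Clotting ends when thrombin, the active form of prothrombin (F2), cuts fibrinogen, a protein built from the chains encoded by Fga, Fgb and Fgg, into fibrin, and plasmin, made from plasminogen (Plg), dissolves the clot again. Complement is another cascade of plasma proteases: mannose-binding lectins and their proteases, or factor B, lead to cleavage of C3 and C5, after which C5b, C6, C7, C8 and C9 assemble into a pore in the target membrane. Hepatocytes make most of these proteins, and several of them, fibrinogen and C3 among them, are known as acute phase proteins whose synthesis the cytokine IL-6 raises. In bulk tissue, fewer cells of a type and less RNA per cell cannot be told apart.

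Aatf itself, the gene the vector was made to silence, showed no lower level under the siAATF label. At chr11:84313682-84404433 (build GRCm39), it had 27.0, 27.5 and 28.2 CPM (counts scaled to a common library size by the TMM method) in the libraries labelled Western siAATF, against 27.6, 21.1 and 30.0 CPM in Western null. It had 39.2, 24.6 and 40.5 CPM in the libraries labelled chow siAATF, against 36.8, 26.5 and 31.6 CPM in chow null. The groups overlapped on both diets, with log2 fold changes of 0.06 ± 0.25 (SE; edgeR, adjusted p = 0.953) and 0.11 ± 0.24 (adjusted p = 1). Counts covered the whole span of Aatf, introns included, so its spliced RNA was not measured on its own. Every direction given below for the vector is therefore a direction between libraries with these labels. A library held 1646853 to 13469819 counts, of which the members took 3.24% to 5.98% and 18S ribosomal RNA took 0.871% to 50.8%. A floor of 3 counts corresponded to 0.185 to 1.69 CPM, depending on the library. All 20 hepatocyte markers on a list with no member gene passed the filter on low counts, with summed levels of 77712 to 95231 CPM in Western siAATF, 86527 to 94692 CPM in Western null, 110276 to 116340 CPM in chow siAATF and 97158 to 134276 CPM in chow null. Other cell types also moved with the diet: 7 of 11 tested stellate and fibroblast markers, 4 of 6 cholangiocyte markers and 4 of 11 endothelial markers were higher in Western null than in chow null, as were 6 of 14 macrophage markers, with 2 lower. The stellate and fibroblast list summed to 338 to 887 CPM in Western siAATF, 1254 to 1732 CPM in Western null, 274 to 372 CPM in chow siAATF and 220 to 396 CPM in chow null, and the cholangiocyte list to 104 to 232 CPM in Western null and 22.8 to 32.7 CPM in chow null. Of the markers listed, Lrat, Cd5l, Ms4a1 and Gzma were at 0 in all libraries. Their part in the results below was not tested.

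Of the 43 genes, 40 passed the filter on low counts and were tested among 11934 genes. The other 3, F11, Klkb1 and Serpind1, were listed at 0 in all 12 libraries. F11 and Klkb1 lie wholly inside the annotated span of Gm30504, and Serpind1 lies inside Pi4ka; how reads on overlapping genes were counted is not given in the sources used here, so these zeros are not read as a lack of expression. Counts were made over the whole span of a gene, introns included. Neighbouring genes overlap 67.8% of the span of C8a, 64.8% of Cpb2, 35.5% of C8g, 34.4% of F2 and 31.9% of Ahsg, and the effect of this overlap on their counts is unknown. C4b has the near-identical copy C4a, and Kng1 resembles Kng2, so how reads were split within these pairs is uncertain.

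In null-vector livers, 12 of the 40 members fell on the Western diet and none rose (edgeR quasi-likelihood test, adjusted p under 0.05), which is 30% of the tested members. Among all tested genes, 6.77% were called lower and 6.44% higher in the same comparison. The 12 were the 3 fibrinogen genes, F7, Plg, Serpinf2, C6, C8a, C8b, Masp1, Vtn and Fetub. The estimate was below 0 for 36 members, 8 of which turned sign when libraries were scaled to hepatocyte markers, with a median log2 fold change of -0.60, against -0.03 over all tested genes. In 24 members all 3 Western null libraries lay below all 3 chow null libraries, a pattern seen in 17% of all genes, and in 1 member (C8g) they lay above them, against 17.7% of all genes. When libraries were scaled to the hepatocyte markers instead, the median of all genes moved to 0.25 and that of the members to -0.28, and 8 members fell: F7, Plg, Masp1 and Vtn no longer passed. The count was 7 without Western null library 1, 5 without Western null library 2 and 17 without library 3 of Western siAATF. Calls over all genes in these fits are not given beside them, so the counts are not read as particular to the members. Leaving out the 4 libraries in which 18S RNA took over 25% of the counts left chow null with 1 library. Fgg, F7, Serpinf2 and C8b were then at -1.61, -0.94, -1.29 and -2.37.

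Between the vectors on the Western diet, 2 members, C8b and Fga, were higher in the libraries labelled siAATF than in Western null, and none was lower. The background was 0.31% of all genes called higher and 0.561% called lower. The estimate was above 0 for 37 members, with a median of 0.48, against 0.06 over all tested genes. In 15 members all 3 libraries labelled Western siAATF lay above all 3 Western null libraries, a pattern seen in 7.69% of all genes; no member showed the opposite, which 7.87% of all genes did. The diet and vector comparisons share the 3 Western null libraries, so a library that was low there moves both.

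**Figure D1:**
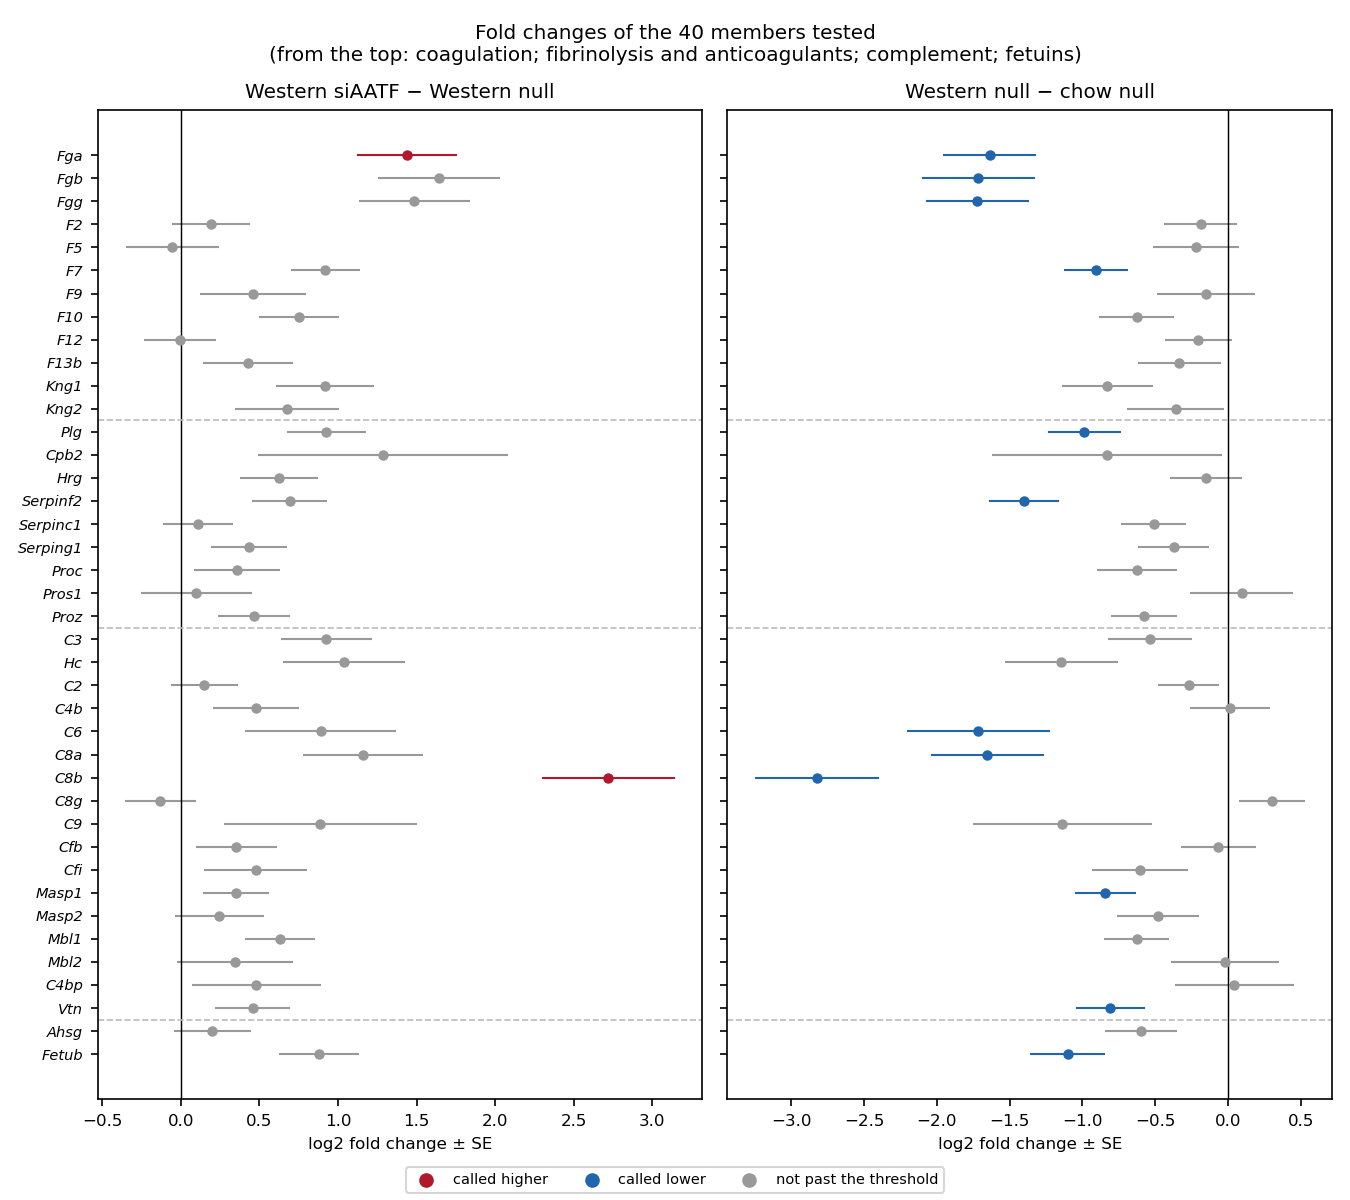
Log2 fold change (x axis) of each of the 40 tested members (rows, by role), with its standard error as a bar, for the libraries labelled Western siAATF against Western null (left panel) and for Western null against chow null (right panel). C8b lies farthest from 0 in both panels, at 2.72 on the left and -2.83 on the right, and 2 points on the left and 12 on the right are coloured as past the adjusted p threshold of 0.05.

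The fibrinogen genes, which encode the soluble precursor of fibrin, fell together on the Western diet. They lie next to each other on chromosome 3, with gaps of 11.1 kb between Fgg and Fga and 8.62 kb between Fga and Fgb (build GRCm39). Fga, the alpha chain, lies at chr3:82933460-82940934, Fgb, the beta chain, at chr3:82949553-82957170 and Fgg, the gamma chain, at chr3:82915031-82922363. Because the 3 genes moved together, the 250 bases before each start site are printed here from RefSeq in build GRCm38.p6, 5′ to 3′ on the gene's own strand, with capitals marking 3 short motifs on either strand: GTTAAT (part of the site of HNF1, a hepatocyte transcription factor), TTGCNNAA (C/EBP) and CTGGGAA (a core of the IL-6 response element).
Fga (chr3:83025903-83026152, plus strand): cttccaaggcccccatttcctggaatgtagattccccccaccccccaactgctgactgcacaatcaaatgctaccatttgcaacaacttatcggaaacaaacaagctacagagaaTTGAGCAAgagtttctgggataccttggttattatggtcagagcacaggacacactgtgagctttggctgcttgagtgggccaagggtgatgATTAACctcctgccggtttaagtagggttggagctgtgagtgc
Fgb (chr3:83049864-83050113, minus strand): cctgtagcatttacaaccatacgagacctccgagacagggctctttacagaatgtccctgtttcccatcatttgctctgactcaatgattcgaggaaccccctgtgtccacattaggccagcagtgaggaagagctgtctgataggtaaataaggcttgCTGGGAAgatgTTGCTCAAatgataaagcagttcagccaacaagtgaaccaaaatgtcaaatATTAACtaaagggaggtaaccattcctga
Fgg (chr3:83007474-83007723, plus strand): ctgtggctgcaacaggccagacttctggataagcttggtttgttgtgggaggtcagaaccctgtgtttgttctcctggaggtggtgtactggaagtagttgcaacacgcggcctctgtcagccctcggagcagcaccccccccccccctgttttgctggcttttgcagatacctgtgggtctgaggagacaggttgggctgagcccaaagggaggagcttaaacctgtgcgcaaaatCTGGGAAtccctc
The Fga window held GTTAAT, on the opposite strand, 43 bases before the start and TTGCNNAA 135 bases before it. The Fgb window held all 3 motifs, at 29, 80 and 91 bases before the start. The Fgg window held CTGGGAA 13 bases before the start and neither of the others. Over the 300-base windows of 32851 promoters (250 bases before to 50 bases after the start), GTTAAT was found in 7.1%, TTGCNNAA in 10.8% and CTGGGAA in 11.1%, and over the 36 windows of the 34 members that RefSeq's table holds, in 27.8%, 33.3% and 22.2%. The letters CAAAGTCC, a core of the HNF4 site, were found in 467 of the 32851 windows and in 0 of the 36. These matches describe letters only.

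Fga had 8464, 8108 and 3696 CPM in the libraries labelled Western siAATF, 2455, 2307 and 2727 CPM in Western null and 6846, 9920 and 6516 CPM in chow null. Western null overlapped neither of the other groups. With the diet the level fell 3.11-fold (log2 fold change -1.64 ± 0.32, adjusted p = 0.00362). The difference between the vectors on the Western diet was 1.44 ± 0.32 (2.71-fold, adjusted p = 0.0442). This call lay close to the threshold and was lost in 13 of 22 alternative fits, among them each one that left out a Western null library or the Western siAATF library 1 or 2 (adjusted p 0.110 to 0.245).

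Fgb had 4535, 7307 and 1689 CPM in the libraries labelled Western siAATF, 1352, 1329 and 1656 CPM in Western null and 5862, 4435 and 3942 CPM in chow null. It fell 3.28-fold with the diet, without overlap (log2 fold change -1.72 ± 0.39, adjusted p = 0.00901). The lowest library labelled Western siAATF stood just above the highest Western null library, and the vector difference of 1.64 ± 0.39 did not pass the threshold (adjusted p = 0.0646).

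Fgg had 3085, 4031 and 1089 CPM in the libraries labelled Western siAATF, 1020, 911 and 1001 CPM in Western null and 3270, 3377 and 3030 CPM in chow null. Both null groups held close values. It fell 3.30-fold with the diet (log2 fold change -1.72 ± 0.36, adjusted p = 0.00508), and this call held in all 22 alternative fits. The difference between the vectors on the Western diet was 1.48 ± 0.35 (adjusted p = 0.0667). For all 3 genes, libraries 1 and 2 of that group lay within or above the chow null range, and library 3 lay below it and above Western null. Fga made up 50.6% to 50.9% of the summed fibrinogen CPM in the Western null libraries and 42.8% to 55.9% in chow null.

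**Figure D2:**
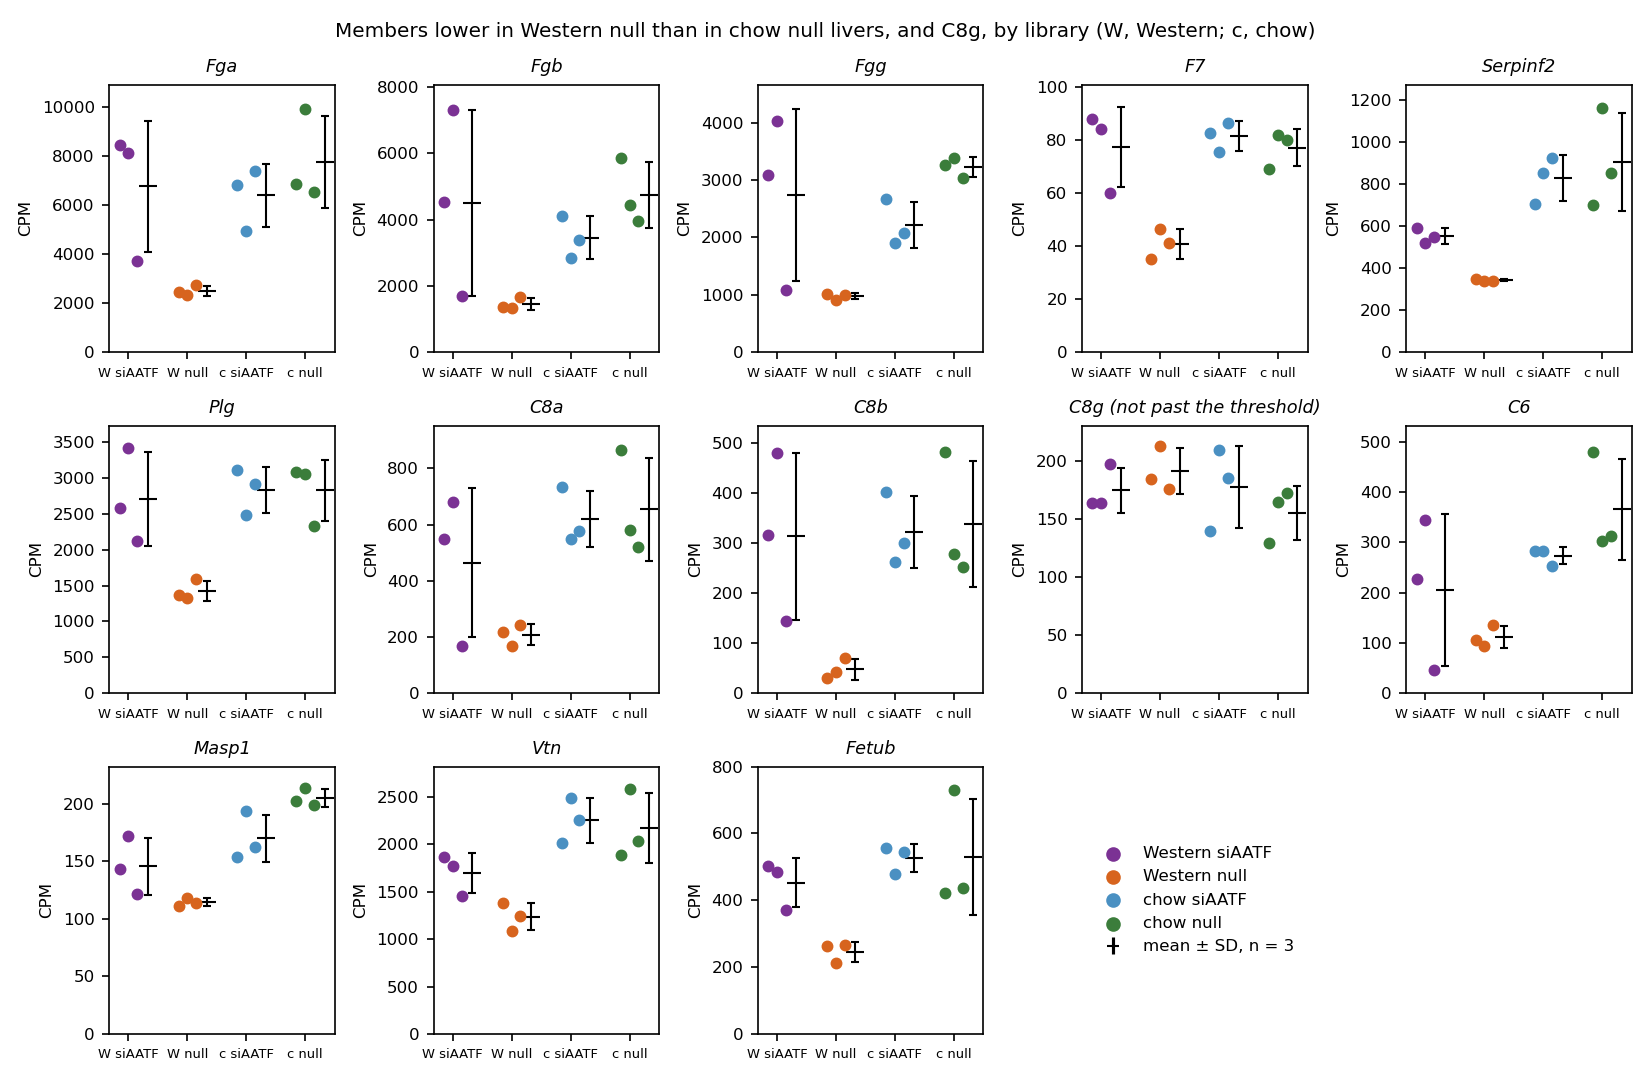
CPM of each library (points, with bars for the group means and error bars for the SD over 3 libraries) in the 4 groups for members described in the text, each panel on its own linear axis from 0. The Western null points are low and close together for the fibrinogen genes (911 to 2727 CPM), while the 3 libraries labelled Western siAATF spread from 1089 to 8464 CPM.

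Of the proteases of the cascade, F7 fell and the others did not pass the threshold. F7 encodes factor VII, which with tissue factor starts clotting after injury. It had 87.8, 84.0 and 59.9 CPM in the libraries labelled Western siAATF, 35.1, 46.3 and 41.2 CPM in Western null and 69.0, 81.9 and 80.1 CPM in chow null. Western null lay below the others without overlap. F7 fell 1.88-fold with the diet (log2 fold change -0.91 ± 0.22, adjusted p = 0.0126), and the vector difference of 0.92 ± 0.22 missed the threshold (adjusted p = 0.0667). F10 and Proz follow F7 on chromosome 8, with gaps of 1498 and 3906 bases. F10, factor X, which makes thrombin from prothrombin, averaged 252 ± 27.2 CPM in Western null and 390 ± 90.2 CPM in chow null (SD, n = 3 each), a log2 fold change of -0.63 ± 0.26 (adjusted p = 0.116). Proz, the cofactor of a factor X inhibitor, gave -0.58 ± 0.23 (adjusted p = 0.106).

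F2, prothrombin, had 1685, 1297 and 1860 CPM in the libraries labelled Western siAATF, 1458, 1350 and 1433 CPM in Western null and 1257, 2133 and 1442 CPM in chow null. The groups overlapped, and the log2 fold change with the diet was -0.19 ± 0.25 (adjusted p = 0.662). F9, factor IX, whose loss causes haemophilia B, had 143, 258 and 77.9 CPM in the libraries labelled Western siAATF, 113, 109 and 128 CPM in Western null and 172, 96.0 and 120 CPM in chow null. It overlapped as well, with a log2 fold change with the diet of -0.15 ± 0.34 (adjusted p = 0.802). For both genes the sign depended on the scaling and on which chow null library was kept. The 95% interval of the difference ran from -0.72 to 0.34 for F2 and from -0.86 to 0.56 for F9, so a change as large as that of the fibrinogen genes lay outside both.

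Among the remaining members of the cascade, F5 (a cofactor of factor X), F12 (a contact factor), F13b (the carrier subunit of the fibrin crosslinker) and Kng2 had log2 fold changes between -0.36 and -0.21 with the diet. Kng1, a kininogen, averaged 854 ± 68.7 CPM in Western null and 1518 ± 250 CPM in chow null, without overlap and without passing (log2 fold change -0.83 ± 0.31, adjusted p = 0.0883). Between the vectors on the Western diet the same genes had estimates between -0.06 (F5) and 0.92 (Kng1), and none passed.

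In the group of fibrinolysis and anticoagulants, Plg and Serpinf2 fell with the diet, which is 2 of 9 tested, and 8 of 9 estimates were below 0. Plg encodes plasminogen, the precursor of the clot-dissolving enzyme, and Serpinf2 encodes alpha-2-antiplasmin, its main inhibitor, so the enzyme and its inhibitor fell side by side. Plg had 2588, 3419 and 2121 CPM in the libraries labelled Western siAATF, 1364, 1327 and 1588 CPM in Western null and 3085, 3063 and 2339 CPM in chow null. It fell with the diet (log2 fold change -0.99 ± 0.25, adjusted p = 0.0167), and the vector difference on the Western diet, without overlap, was 0.93 ± 0.25 (adjusted p = 0.122). Serpinf2 had 593, 520 and 547 CPM in the libraries labelled Western siAATF, 350, 338 and 340 CPM in Western null and 702, 1161 and 853 CPM in chow null, so the first group lay between the null groups and overlapped neither. It fell 2.64-fold with the diet (-1.40 ± 0.24, adjusted p = 0.00154), a call that held in all 22 alternative fits. The vector difference was 0.69 ± 0.24 (adjusted p = 0.25).

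Serpinc1, antithrombin, the main inhibitor of thrombin, had 1158, 1231 and 1426 CPM in the libraries labelled Western siAATF, 1180, 1222 and 1139 CPM in Western null and 1509, 1946 and 1592 CPM in chow null. The null groups did not overlap, but the difference was small, at -0.51 ± 0.22 (adjusted p = 0.14). The groups on the Western diet overlapped (0.11 ± 0.22, adjusted p = 0.902). Proc, which encodes the anticoagulant protein C, gave -0.63 ± 0.27 with the diet (adjusted p = 0.143). Its cofactor Pros1 gave 0.09 ± 0.36, Hrg, a plasma protein that binds plasminogen and heparin, gave -0.15 ± 0.25, and Serping1, the C1 inhibitor, gave -0.37 ± 0.24. Cpb2, a carboxypeptidase that slows clot lysis, is overlapped by neighbouring genes over most of its span. It had 1.32 to 36.8 CPM over the 12 libraries, and its standard error of 0.79 left its level between groups undetermined.

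In the complement group, C6, C8a, C8b, Masp1 and Vtn fell with the diet, which is 5 of 17, and none rose. C6, C8a and C8b are parts of the membrane attack complex, while Masp1 is a protease of the lectin pathway and Vtn, vitronectin, is a plasma and matrix protein that holds back the attack complex. C8b had the estimate farthest from 0 of all members in both comparisons. It had 316, 479 and 144 CPM in the libraries labelled Western siAATF, 29.6, 41.2 and 69.9 CPM in Western null and 482, 277 and 252 CPM in chow null. Western null was far below both other groups. C8b fell 7.09-fold with the diet (log2 fold change -2.83 ± 0.43, adjusted p = 0.000614), a call that held in all 22 alternative fits. The libraries labelled Western siAATF had a 6.58-fold higher level than Western null (2.72 ± 0.42, adjusted p = 0.00509). That call held in 20 of 22 alternative fits. It was lost without Western null library 1 (adjusted p = 0.0547) and without the 4 libraries in which 18S RNA took over 25% of the counts (adjusted p = 0.0541), where the differences were 2.46 and 2.27.

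C8b and C8a, which encode the beta and alpha chains of C8, lie on chromosome 4 at chr4:104623514-104661745 and chr4:104672876-104733684 (GRCm39), with 11.1 kb between them. The third chain, C8g, lies on chromosome 2. The 250 bases before the start sites of the pair on chromosome 4 are shown with the same capitals, since these neighbours fell together while C8g did not pass the test.
C8b (chr4:104766067-104766316, plus strand, GRCm38.p6): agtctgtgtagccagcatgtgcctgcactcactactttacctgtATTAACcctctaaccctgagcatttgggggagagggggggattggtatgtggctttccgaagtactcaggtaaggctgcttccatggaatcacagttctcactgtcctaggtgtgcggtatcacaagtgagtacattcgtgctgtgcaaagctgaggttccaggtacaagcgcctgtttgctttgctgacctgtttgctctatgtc
C8a (chr4:104876399-104876648, minus strand, GRCm38.p6): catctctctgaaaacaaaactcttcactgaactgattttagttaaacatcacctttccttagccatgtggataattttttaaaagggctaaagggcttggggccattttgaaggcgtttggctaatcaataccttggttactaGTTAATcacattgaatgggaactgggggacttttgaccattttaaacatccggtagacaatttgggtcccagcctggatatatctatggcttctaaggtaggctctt
Each window held 1 of the 3 motifs, GTTAAT, 206 bases before the start of C8b (on the opposite strand) and 107 bases before the start of C8a. C8a had 547, 679 and 167 CPM in the libraries labelled Western siAATF, 217, 166 and 241 CPM in Western null and 864, 580 and 519 CPM in chow null. It fell with the diet (log2 fold change -1.65 ± 0.39, adjusted p = 0.0105), and library 3 of Western siAATF overlapped Western null (vector difference 1.16 ± 0.38, adjusted p = 0.229). C8g, whose protein belongs to the lipocalin family, had 164, 163 and 197 CPM in the libraries labelled Western siAATF, 185, 213 and 176 CPM in Western null and 129, 164 and 172 CPM in chow null. It was the only member whose Western null libraries all lay above chow null (0.30 ± 0.22, adjusted p = 0.397). The 3 chains of 1 protein complex thus had estimates of -1.65, -2.83 and 0.30 with the diet.

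C6, which follows C5b in the attack complex, had 226, 346 and 45.3 CPM in the libraries labelled Western siAATF, 105, 93.4 and 135 CPM in Western null and 481, 303 and 314 CPM in chow null. It fell with the diet (log2 fold change -1.72 ± 0.49, adjusted p = 0.0348), while library 3 of Western siAATF stood below all Western null libraries (vector difference 0.89 ± 0.48, adjusted p = 0.57). Hc, the gene of C5, had 829, 1111 and 268 CPM in the libraries labelled Western siAATF, 355, 350 and 374 CPM in Western null and 1141, 519 and 724 CPM in chow null. The null groups did not overlap, and the difference of -1.15 ± 0.39 missed the threshold (adjusted p = 0.061). C9, which forms the wall of the pore, had 301, 647 and 72.6 CPM in the libraries labelled Western siAATF, 198, 184 and 171 CPM in Western null and 702, 227 and 288 CPM in chow null (diet difference -1.14 ± 0.62, adjusted p = 0.249). In both genes library 3 of Western siAATF lay below Western null.

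Masp1 had 143, 172 and 121 CPM in the libraries labelled Western siAATF, 111, 118 and 114 CPM in Western null and 202, 214 and 199 CPM in chow null. Values within each null group lay close together, and the libraries labelled Western siAATF lay between them. With the diet Masp1 fell by 0.84 on the log2 scale (SE 0.21, adjusted p = 0.0146), and the vector difference was 0.35 ± 0.21 (adjusted p = 0.608). Vtn had 1870, 1768 and 1456 CPM in the libraries labelled Western siAATF, 1377, 1090 and 1246 CPM in Western null and 1887, 2587 and 2039 CPM in chow null, and fell with the diet (-0.81 ± 0.24, adjusted p = 0.0334). Masp2, the protease that cleaves C4 and C2, gave -0.48 ± 0.28 with the diet, and the mannose-binding lectins Mbl1 and Mbl2, which recognise sugars on microbes, gave -0.63 ± 0.22 (adjusted p = 0.075) and -0.02 ± 0.37.

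C3, the central protein of the cascade, had 14972, 18029 and 8837 CPM in the libraries labelled Western siAATF, 6764, 6421 and 8857 CPM in Western null and 11918, 11332 and 8711 CPM in chow null. Libraries 1 and 2 of Western siAATF exceeded all others, and library 3 lay within Western null (vector difference 0.92 ± 0.29, adjusted p = 0.195). The diet difference was -0.54 ± 0.29 (adjusted p = 0.234), with the null groups overlapping by 1 library. Cfb, factor B, the protease of the alternative pathway, had 1492, 1876 and 1090 CPM in the libraries labelled Western siAATF, 1104, 1187 and 1198 CPM in Western null and 1408, 1246 and 1001 CPM in chow null. The groups overlapped, and the diet difference of -0.07 ± 0.26 (adjusted p = 0.891) turned its sign with the scaling. Its neighbour C2, 85 bases away on chromosome 17, gave -0.27 ± 0.21, and C4b, on the same chromosome, gave 0.01 ± 0.27. The regulators Cfi, which cleaves C3b, and C4bp, which binds C4b, gave -0.60 ± 0.33 and 0.04 ± 0.41, and neither passed.

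Of the fetuins, Fetub fell and Ahsg did not pass. Both belong to the cystatin superfamily and lie in a row with Hrg, Kng2 and Kng1 on chromosome 16, with gaps of 18.9, 11.3, 24.2 and 29.1 kb. Fetub had 502, 486 and 369 CPM in the libraries labelled Western siAATF, 262, 212 and 265 CPM in Western null and 421, 729 and 438 CPM in chow null. It fell with the diet (log2 fold change -1.10 ± 0.26, adjusted p = 0.0102), and the vector difference, without overlap, was 0.88 ± 0.26 (adjusted p = 0.147). Ahsg, fetuin-A, which binds calcium phosphate in plasma, had 2796, 2872 and 1871 CPM in the libraries labelled Western siAATF, 2432, 1922 and 2207 CPM in Western null and 3245, 3649 and 3031 CPM in chow null. The null groups did not overlap, but the difference of -0.60 ± 0.25 missed the threshold (adjusted p = 0.12). Of the 5 genes in this row, Fetub was the one called, and the estimates with the diet ran from -1.10 (Fetub) to -0.15 (Hrg).

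On chow, the vector changed none of the 40 members by edgeR's quasi-likelihood test, DESeq2 or limma-voom, and 0% of all genes were called by each tool. None of the members had an unadjusted p under 0.05 in the edgeR fit, against 2.39% of all genes. The median was -0.06 over the members and -0.03 over all genes. Under the label chow siAATF, Fga had 6819, 4947 and 7404 CPM and C8b had 401, 263 and 301 CPM, both within or across the chow null range. Fgg had 2662, 1898 and 2075 CPM, all below chow null (-0.54 ± 0.35, adjusted p = 1). Fgg, C6 and Masp1 were the 3 members with this pattern, seen in 4.32% of all genes, and no member had the opposite pattern, seen in 4.25%.

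The interaction, which tests whether the vector difference is unlike on the Western diet and on chow, called none of the 40 members, with 0.193% of all genes called, 0.101% in the positive and 0.0922% in the negative direction. In that test 13 of the 40 members had an unadjusted p under 0.05, against 9.16% of all genes. DESeq2 called 4 members (C8b, Fga, Fgb and Fgg) and 1.02% of the genes it tested, and limma-voom called 0 members and 0.0754% of all genes. The estimate was largest for C8b, at 2.79 ± 0.57 (adjusted p = 0.0617), followed by Cpb2 at 2.17 ± 1.11 (adjusted p = 0.587), Fgb at 2.10 ± 0.54 (adjusted p = 0.149), Fgg at 2.03 ± 0.49 (adjusted p = 0.125) and Fga at 1.72 ± 0.44 (adjusted p = 0.149). A vector difference particular to the Western diet was therefore not established for any member in the edgeR fit. The libraries labelled Western siAATF and chow siAATF did not differ past the threshold in any member either, against 0.763% of all genes higher and 0.721% lower, with medians of -0.05 over the members and 0.04 over all genes. An unadjusted p under 0.05 was found for 2 members and for 15.2% of all genes, while DESeq2 and limma-voom called 0 members, against 3.63% and 1.53% of the genes each tested. In 4 members, Serpinf2, Serpinc1, C2 and Vtn, all 3 libraries labelled Western siAATF lay below all 3 labelled chow siAATF (8.36% of all genes), and in 0 they lay above them (9.24% of all genes). C8b differed by -0.04 ± 0.39 between these groups (95% interval -0.87 to 0.80), and Serpinf2 by -0.58 ± 0.24 (adjusted p = 0.245).

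**Figure D3:**
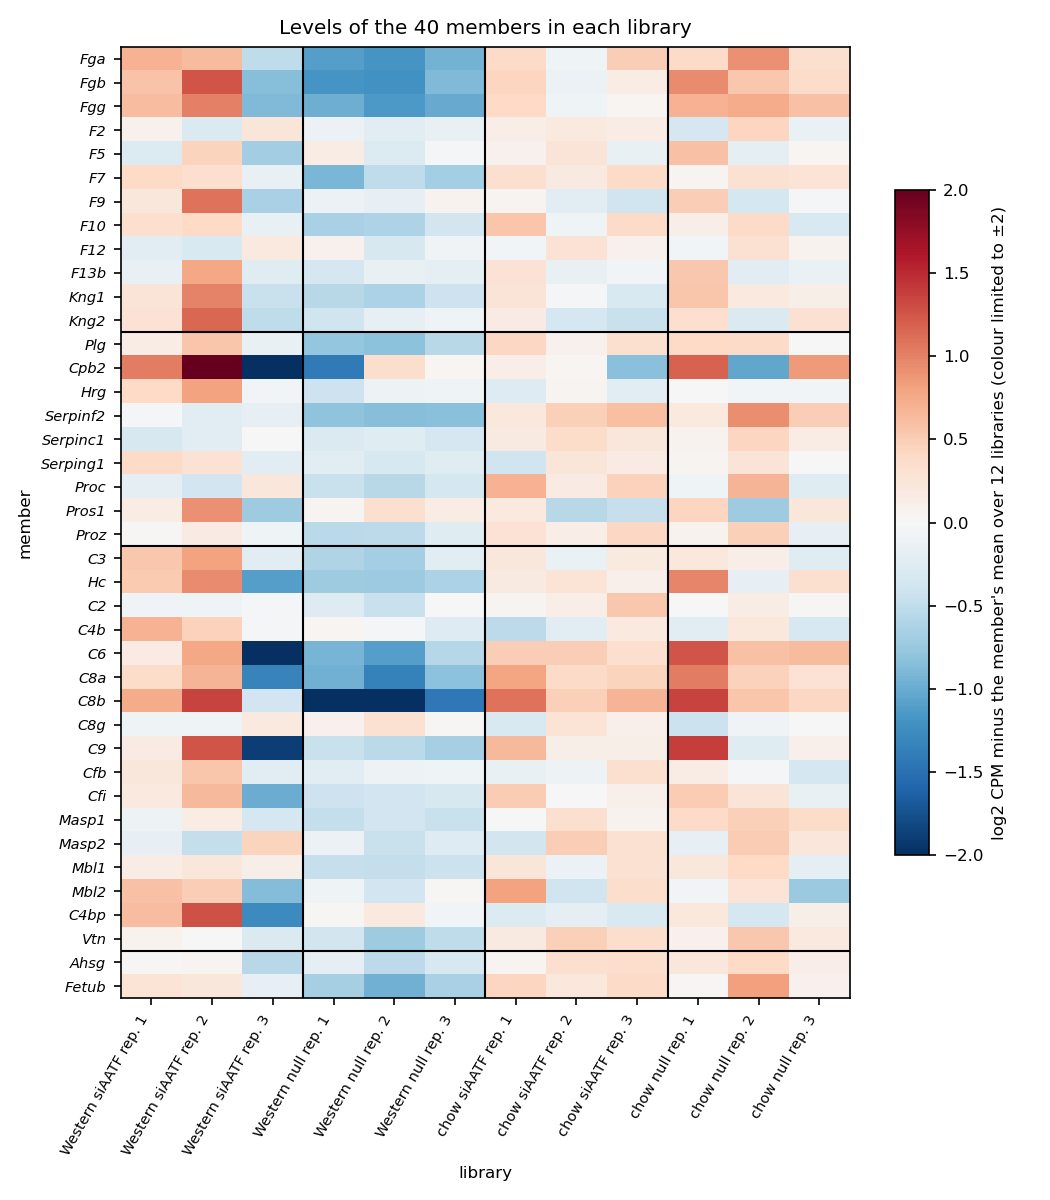
Log2 CPM of the 40 tested members (rows, by role) in each of the 12 libraries (columns), each row centred on its own mean. The 3 Western null columns are low for most rows, and library 3 of the Western siAATF group is low for C6, C9, Hc and C4bp, while libraries 1 and 2 of that group are high.

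One library decided much of the vector comparison. Without library 3 of the Western siAATF group, 13 members were called higher than in Western null instead of 2: Fga, Fgb, Fgg, F7, Kng1, Plg, C3, Hc, C6, C8a, C8b, C4bp and Fetub, while the number of calls over all genes was 413 instead of 104. C8b was then at 3.03 and Fgb at 2.02 on the log2 scale. Outside the members, libraries 1 and 2 of this group stood apart from library 3 and from the other groups in acute phase and neutrophil genes. 18S RNA took 19.8%, 50.8% and 0.871% of the counts in libraries 1, 2 and 3 of Western siAATF, and its part was not tested. The summed level of 27 acute phase genes on a list without members was 55364, 53239 and 12435 CPM in the libraries labelled Western siAATF, against 14518, 13863 and 16507 CPM in Western null, 13690, 11715 and 26863 CPM in chow siAATF and 16979, 16023 and 13324 CPM in chow null. Saa1, a serum amyloid A gene that is among the strongest acute phase responders, had 8506, 5138 and 61.2 CPM in the libraries labelled Western siAATF, against 191, 145 and 284 CPM in Western null. The 8 neutrophil markers summed to 116, 134 and 3.08 CPM in the libraries labelled Western siAATF, against 2.34 to 5.45 CPM in Western null, 0 to 4.18 CPM in chow siAATF and 3.77 to 5.08 CPM in chow null. The higher fibrinogen, C3 and C8a levels of libraries 1 and 2 of Western siAATF thus stood in the same libraries as high acute phase and neutrophil genes. In chow siAATF, library 3 had the highest acute phase sum of its group. Its fibrinogen sum of 12874 CPM, C3 of 11785 CPM and C8a of 578 CPM lay below library 1 of that group (13599, 12011 and 733 CPM). The part of acute phase or neutrophil genes in these levels was not tested. The acute phase sum of library 3 was below all Western null libraries. Members were placed on both sides of Western null in library 3. Hc, C6, C9, Cfi and C4bp were among those below all Western null libraries. The 15 members without overlap (a pattern seen in 7.69% of all genes), Fga, Fgb, Fgg and C8b among them, lay above by the definition of that set.

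**Figure D4:**
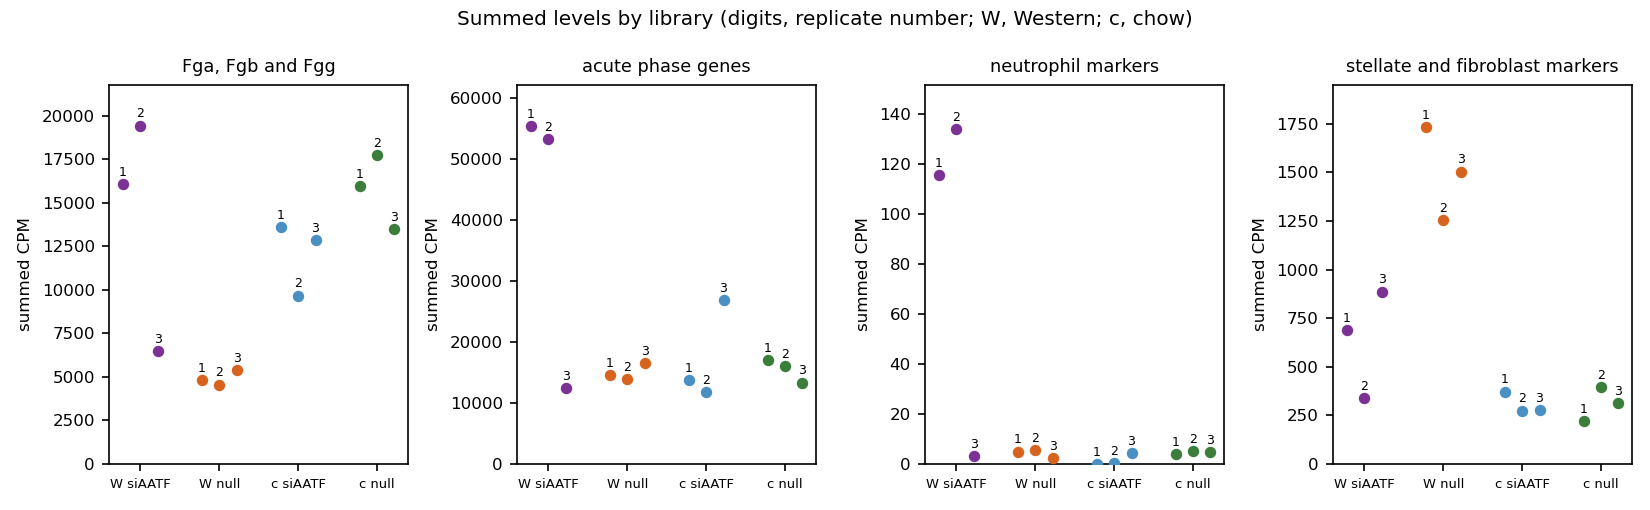
Summed CPM of Fga, Fgb and Fgg, of 27 acute phase genes, of 8 neutrophil markers and of 12 stellate and fibroblast markers (panels, each with a linear axis from 0) in every library, with the replicate number above each point. Libraries 1 and 2 of the Western siAATF group are the highest for acute phase genes (55364 and 53239 CPM) and neutrophil markers, while library 3 lies near the Western null points in these panels.

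The length of the genes went with how some libraries differed from their group. Across the 40 members, Spearman's rho between a gene's span and its deviation from the group mean was 0.508 in library 2 and -0.394 in library 3 of Western siAATF, 0.356 in library 1 and -0.647 in library 3 of chow siAATF, and 0.588 in library 1 and -0.589 in library 2 of chow null. Over all 11934 genes the values of these 6 libraries were 0.256, -0.157, 0.269, -0.236, 0.114 and -0.256, in the same order. In the other 6 libraries rho lay between -0.202 and 0.170 over the members, and in 3 of them, library 1 of Western siAATF and library 2 of Western null and of chow siAATF, it was above 0 over the members and below 0 over all genes. The points of 1 library share its depth and RNA, so these are descriptions. The 10 members with the longest spans deviated by a median of 0.81 in library 2 and -1.03 in library 3 of Western siAATF, against 0.29 and -0.41 for the 10 with the shortest. In the Western null libraries the same medians stayed between -0.11 and 0.10 for both sets. C6, C9 and Hc, with spans of 76978, 53480 and 85178 bases, belong to the long set, whereas the fibrinogen genes span 7333 to 7618 bases. The part of span in the vector or diet differences was not tested.

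**Figure D5:**
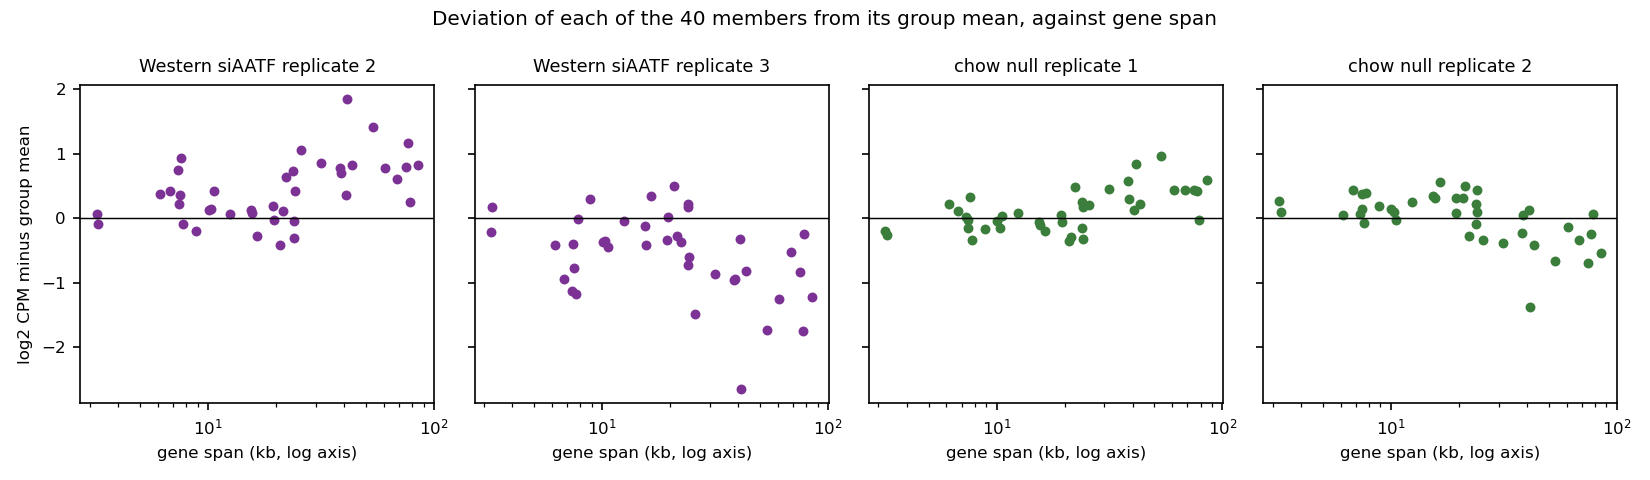
Deviation of each member's log2 CPM from its group mean (y axis) against its genomic span (x axis, log scale) in single libraries, 1 point for each of the 40 tested members. Long members lie above 0 in library 2 and below 0 in library 3 of Western siAATF, with Spearman's rho of 0.508 and -0.394.

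Other genes of the same systems were read from lists without members. Of 25 tested genes for further coagulation and complement proteins, C1ra, Mug1 and Mug2 fell and Colec11 rose on the Western diet with the null vector. In this comparison 6.77% of all tested genes were called lower and 6.44% higher, a background that holds for the lists below as well. The calls on this list are not read as a trait of the list. This list was not limited to genes of hepatocytes, and the cell type behind the rise of Colec11 was not tested. C1ra, a protease of the C1 complex, averaged 114 ± 8.62 CPM in Western null and 216 ± 15.6 CPM in chow null (log2 fold change -0.91 ± 0.21, adjusted p = 0.0102). Mug1, which encodes a murine relative of alpha-2-macroglobulin, averaged 2997 ± 271 CPM in Western null and 5772 ± 892 CPM in chow null (-0.95 ± 0.26, adjusted p = 0.0233), and it resembles Mug2 closely, so their reads may have been split. Colec11, a collectin that starts the lectin pathway, averaged 46.1 ± 5.28 CPM in Western null and 19.0 ± 2.37 CPM in chow null (1.28 ± 0.29, adjusted p = 0.00891). Between the vectors on the Western diet, 0 of the 25 passed, against 0.31% of all tested genes called higher and 0.561% lower.

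Haemostasis genes that are mainly expressed outside hepatocytes went the other way with the diet: of 18 tested, 7 rose in Western null and 0 fell. Anxa2, whose protein with S100a10 forms a cell-surface receptor for plasminogen, averaged 98.6 ± 17.8 CPM in Western null and 4.32 ± 3.50 CPM in chow null (log2 fold change 4.26 ± 0.74, adjusted p = 0.00414). S100a10 averaged 130 ± 25.6 CPM in Western null and 35.4 ± 2.59 CPM in chow null (1.88 ± 0.26, adjusted p = 0.000325). Vwf, von Willebrand factor of endothelial cells, averaged 51.3 ± 3.93 CPM in Western null and 16.4 ± 7.15 CPM in chow null (1.69 ± 0.37, adjusted p = 0.00712). The plasminogen activator Plat rose as well (3.65 ± 0.69, adjusted p = 0.00304) on 1 to 3 counts in each chow null library, so its fold is imprecise. The plasminogen activators Plat and Plau and the receptor genes were thus higher in the livers in which Plg and Serpinf2 were lower.

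Among 17 tested complement receptors, membrane regulators and C1q genes, 5 rose and 1 fell in Western null. Itgax, a chain of complement receptor 4, averaged 16.3 ± 2.64 CPM in Western null and 0.790 ± 0.336 CPM in chow null (log2 fold change 4.51 ± 0.54, adjusted p = 9.07e-05), and C1qb, a chain of C1q that macrophages make, averaged 142 ± 46.4 CPM in Western null and 45.0 ± 16.9 CPM in chow null (1.69 ± 0.41, adjusted p = 0.0147). Susd4, a complement regulator, averaged 4.33 ± 2.33 CPM in Western null and 53.8 ± 6.92 CPM in chow null (-3.73 ± 0.50, adjusted p = 0.000322). Macrophage markers summed to 577 to 917 CPM in Western null and 231 to 429 CPM in chow null, beside these values. Of 23 tested hepatocyte transcription factors, 5 fell and 2 rose with the diet. Hnf4a, a regulator of many hepatocyte genes, averaged 382 ± 66.6 CPM in the libraries labelled Western siAATF, 384 ± 41.4 CPM in Western null and 655 ± 126 CPM in chow null (diet difference -0.77 ± 0.24, adjusted p = 0.0451). Between the vectors on the Western diet 0 of the 23 passed, against 0.31% of all tested genes called higher and 0.561% lower.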

How the data were processed

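Total liver RNA was sequenced in 12 libraries after SMART-Seq library preparation, per the labels' protocols. The authors deposited 1 table of whole-number counts per gene, made with STAR 2.7.11 and featureCounts 2.0.1 on GRCm39, with R 4.3.2 and DESeq2 1.42.0 also named, per the submitters' processing notes. For the strand setting and for reads on overlapping genes, the choice is not given in the sources used here, by label or header. The deposited lengths equal whole gene spans, so introns were counted. From these counts, filterByExpr kept 11934 genes, TMM scaling gave CPM, and edgeR 4.0.16 (R 4.3.3) tested 5 contrasts by the quasi-likelihood method in 1 fit of 12 libraries and 4 groups (leaving 8 residual degrees of freedom); p-values were adjusted over all tested genes by the Benjamini-Hochberg method, with a threshold of 0.05. Errors on log2 fold changes are standard errors. The scripts were tested on simulated data. Alternatives were RLE factors, scaling to 20 hepatocyte markers, removal of the 18S gene or of libraries over 25% 18S, other filters (none, or CPM of at least 1 in at least 3 libraries), DESeq2 1.42.0, limma-voom (limma 3.58.1), the compared groups alone, a replicate block and leaving out each library. Replicates were compared by a chi-square of their counts, which divided by its degrees of freedom was 10.3 or more in each pair, so none was merged. Floors cover counting error only, since reads carry no molecular identifiers. The members and all lists were chosen with earlier results of these data known. Values in every library are given for called members and for Fga, Fgb, Fgg, F2, F9, Plg, Serpinc1, C3, Hc, C9, Cfb and Ahsg. C8g, Plau, Hnf4a, Stat3 and Saa1 were named after their values were seen. Of other lists, up to 4 called genes per comparison were to be named, by adjusted p. Promoters came from RefSeq (GRCm38.p6) and were not joined to GRCm39 coordinates.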

Additional observations from a re-analysis of the deposited data

Results flagged for a closer look

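For Fgg and Masp1 the libraries of the vector comparison were arranged one way on the Western diet and the other way on chow, and an interaction term of the edgeR fit across all genes tested the difference between the diets. Fgg lay above Western null in all 3 libraries labelled Western siAATF and below chow null in all 3 libraries labelled chow siAATF. The interaction estimate was 2.03 on the log2 scale (edgeR, adjusted p = 0.125), which does not pass the threshold. Masp1, the lectin pathway protease, showed the same arrangement of libraries with an interaction estimate of 0.62 (edgeR, adjusted p = 0.544), which does not pass either.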

How the results depend on the processing

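The 12 lower calls of the diet comparison became 4 without the 4 libraries over 25% 18S RNA, which leaves chow null with 1 library whose spread is assumed to be that of the others, and ran from 5 to 17 when single libraries were left out. Fgg, Serpinf2 and C8b were called in every alternative, and no called member turned sign. DESeq2 called all 12 lower and also Serpinc1, Hc, Mbl1 and Ahsg (DESeq2 adjusted p 0.0230 to 0.0385). The 2 calls of the vector comparison on the Western diet became 4 with hepatocyte marker scaling, 7 with no filter, 8 with DESeq2, 1 with limma-voom, 1 in a fit of the 2 groups compared and 0 without the libraries over 25% 18S RNA, and ran from 0 (without Western null library 1) to 13 (without Western siAATF library 3). For Western siAATF against chow siAATF, 1 member was called with hepatocyte marker scaling and 1 with no filter, and 0 to 2 with single libraries left out. The interaction called 1 with hepatocyte marker scaling, 4 with no filter, 4 with DESeq2 and 0 to 8 with single libraries left out. The chow vector comparison stayed at 0, with 0 to 0 when libraries were left out. Calls over all genes in these fits are not given in this paragraph, so the changes in the counts are not read as particular to the members. The causes of these differences were not tested. The fit of the compared groups alone was not run for the interaction, which needs all 4.

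No pairing by replicate number was seen: of 18 correlations of deviations between same-numbered libraries, from -0.378 to 0.259, 1 was over 0.1 (library 1 of chow siAATF and of chow null). The deviations also carry each library's own depth and 18S share, so these correlations cannot exclude a pairing. With a replicate block, 10 of the 12 diet calls and 1 of the 2 Western vector calls (C8b) were made and no others.

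Scaling to the hepatocyte markers shifted estimates together: for the diet the median over the members was -0.28, and 8 of 40 members near 0 turned sign (F5, F2, F12, Hrg, Cfb, C2, Mbl2 and F9), none of them called. It turned the sign of 1 member for the vector on the Western diet, 3 on chow, 15 for Western siAATF against chow siAATF and 2 in the interaction, and of 0 called members. The other alternatives were followed for 20 members, of which F2, F9 and Cfb turned sign and passed in no setting. For the diet, F2 was at 0.16 with hepatocyte marker scaling and -0.34 to 0.056 with single libraries left out, F9 at 0.10 with that scaling and -0.33 to 0.10 with single libraries left out, and Cfb at 0.23 with that scaling, 0.24 without the libraries over 25% 18S RNA and -0.20 to 0.049 with single libraries left out. These signs turned without chow null library 2 (F2) or 1 (F9, Cfb). For the vector on the Western diet, F9 was at -0.065 without the libraries over 25% 18S RNA and at -0.071 (without Western siAATF library 2) to 0.77 with single libraries left out. Hepatocyte marker scaling moved the median of all genes to 0.25 for the diet and to 0.42 for Western siAATF against chow siAATF. Depth limits Cpb2 most, with 1.32 CPM in its lowest library.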

Other observations

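Acute phase genes outside the members showed no common direction with the diet. Their median log2 fold change was -0.05, against -0.03 over all tested genes. In this comparison 6.44% of all tested genes were called higher and 6.77% lower, so the counts below are not read as a trait of the list. Of 27 acute phase genes outside the members, 2 rose in Western null against chow null, Saa3 (log2 fold change 2.32 ± 0.45, edgeR quasi-likelihood test, adjusted p = 0.00356) and Orm3 (2.54 ± 0.65, adjusted p = 0.0207), and 3 fell: Lifr, a cytokine receptor chain (-1.48 ± 0.29, adjusted p = 0.0036), Hamp, which encodes hepcidin (-1.75 ± 0.41, adjusted p = 0.0116), and Stat3, the transcription factor that acts below the IL-6 receptor (-1.18 ± 0.34, adjusted p = 0.0296). Between the vectors on the Western diet 1 of the 27 passed. Itih3, which encodes a chain of the inter-alpha-trypsin inhibitors, had 2741, 3216 and 799 CPM in the libraries labelled Western siAATF, against 699, 676 and 674 CPM in Western null (1.72 ± 0.37, adjusted p = 0.0373). Of the 27, 4 were called higher in the libraries labelled Western siAATF than in those labelled chow siAATF and 0 lower: Orm3, Saa3, Socs3 and Serpina3n. Over all tested genes 0.763% were called higher and 0.721% lower. Socs3 had 30.1, 13.8 and 4.84 CPM in Western siAATF, against 5.03, 3.82 and 3.55 CPM in chow siAATF. Serpina3n had 1393, 1215 and 354 CPM, against 208, 340 and 356 CPM. Library 3 of Western siAATF thus overlapped chow siAATF in both genes, while Orm3 and Saa3 did not overlap.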
